A study of Manihot esculenta with 32 samples.

Results

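Photosystem II is the chlorophyll protein complex that splits water at the start of photosynthetic electron transport. The genes described here encode 3 of its subunits (PsbR, PsbP-1 and PsbX) and 2 proteins of its light-harvesting antenna (LHCB2.1 and LHCB3) in cassava (Manihot esculenta). They are 5 of the 32732 loci that carry a gene name in the atlas. They were chosen by annotation and by level. The annotation, in a list of genes differing between leaf and fibrous root, had to name a photosystem or light harvesting, and the loci were selected on a mean in leaf of at least 1000 FPKM (a fragment count scaled by transcript length and library size, so that levels of different genes can be compared). Only the first portion of that list was used for the choice, so the 5 loci are not every highly expressed photosystem II gene: 7 of 10 other subunit and antenna loci considered here also exceeded 1000 FPKM in leaf. PsbX had the lowest leaf mean of the 5, 1814 ± 279 FPKM (SD, n = 3), well above the limit. Among the subunit and antenna loci considered here, the highest below the limit was Manes.06G163500, annotated as a photosystem II 5 kD protein, with 711 ± 37.2 FPKM. Because leaf and fibrous root values chose the genes, levels in those organs are given as a description with no test.

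Light absorbed by the antenna proteins, which bind chlorophyll a and b in the thylakoid membrane, is passed to the reaction centre of photosystem II. A manganese cluster on the lumenal side of that reaction centre oxidises water, and extrinsic proteins such as PsbP shield it. In green plant organs the nuclear genes for these proteins are among the most strongly transcribed, and they are regulated by light and by chloroplast development.

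The atlas sampled cultivar TME 204 in 32 RNA-seq libraries of polyadenylated RNA from 11 tissue/organ types, with 3 biological replicates per type and 2 for storage root. Plants 3 months old, grown in a glasshouse, gave 9 of the types: leaf blade, midvein, petiole, lateral bud, storage root, stem, fibrous root, and the apical meristems of shoot (SAM) and root (RAM). The other two were cultures, friable embryogenic callus (FEC), 7 weeks old per the labels, and organized embryogenic structures (OES), 4 weeks old, both grown on medium with the auxin picloram. Each SAM or RAM library was a pool of 6 dissected meristems, whose RNA was isolated with another kit and fragmented with less enzyme than the rest, so in a comparison of a meristem with a non-meristem type the tissue and the preparation cannot be told apart. All plants were of this 1 cultivar, and organ boundaries were cut by hand.

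Named loci held 4175114 to 24123487 fragments per library. The tissue labels were checked against markers. The summed level of 4 leaf markers, 3 loci of the rubisco small subunit and rubisco activase, was 29538 to 56170 FPKM in leaf and 57.3 to 133 FPKM in RAM. Almost all of the sum in leaf came from 2 of the 4. Rubisco activase averaged only 24.6 FPKM in leaf, and the small-subunit locus Manes.06G023400 had its lowest mean there (7.21 FPKM) and its highest in storage root (1081 FPKM), with 85.5 FPKM in RAM, so these 2 loci did not mark leaf here. WUSCHEL related homeobox 2, an embryogenic marker, averaged 270 FPKM in FEC and 39.4 FPKM in OES. The 4 shoot meristem markers of the KNOTTED type summed to 241 to 249 FPKM in SAM, but stem (212 to 223 FPKM) and storage root (229 to 281 FPKM) were of the same order, so these genes did not separate the meristem from those organs.

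Gene models are those of the AM560-2 v6.1 assembly. PsbR is the locus Manes.03G082900, PsbP-1 Manes.02G089900, PsbX Manes.03G038500 and LHCB3 Manes.03G116700. LHCB2.1 (Manes.01G175600) shares 1 locus with the gene Manes.01G175700, so its values are those of both genes together. Their genome positions were not used here. Antenna proteins form a multigene family of similar sequences, and how reads were divided among near-identical copies is uncertain. All 5 loci had at least 6 fragments in every library.

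The 5 loci together took a median of 0.984% of all fragments on named loci in leaf, 0.675% in midvein, 0.511% in stem, 0.376% in petiole, 0.194% in lateral bud and 0.0939% in SAM. The median was 0.00632% in OES, 0.00370% in storage root, 0.00190% in fibrous root, 0.00164% in FEC and 0.000837% in RAM. The aerial types stood apart from the others, with at least 0.0778% in every SAM library and at most 0.00691% in every OES library. In leaf the LHCB2.1 locus ranked 18 among named loci by mean FPKM, PsbP-1 44, LHCB3 52, PsbR 65 and PsbX 81.

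**Figure D1:**
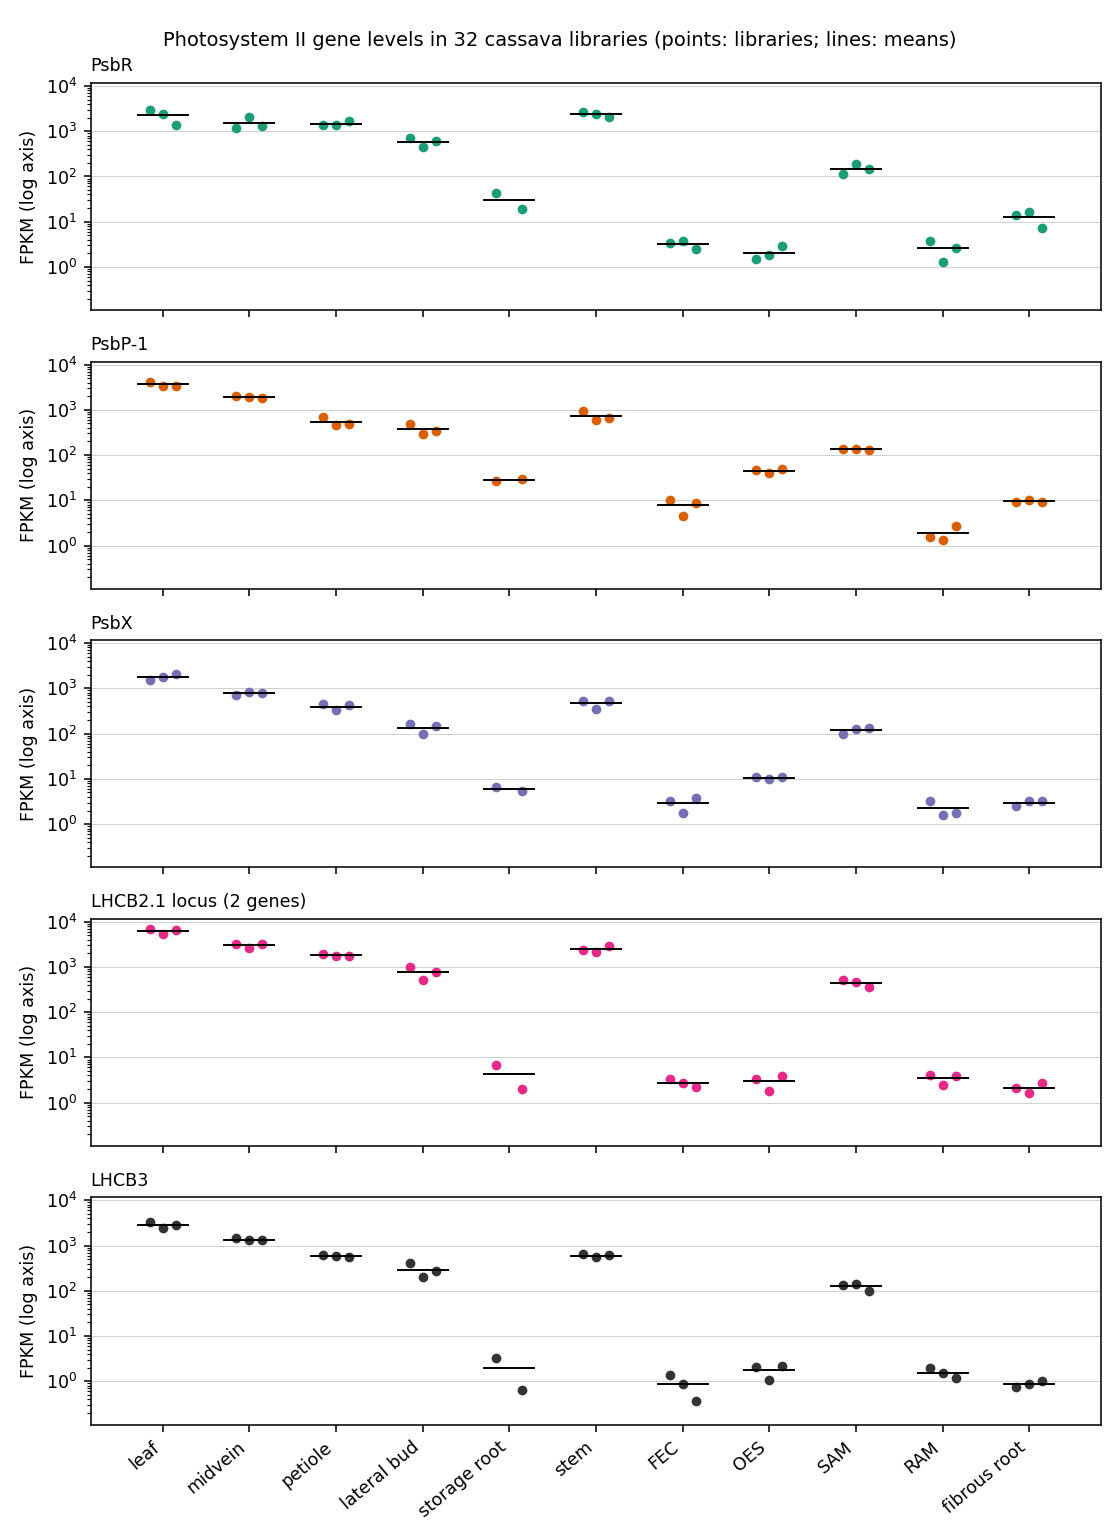
FPKM of each locus (log axis) in the 32 libraries, by tissue/organ type; points are libraries and lines are means. Levels in leaf, midvein, petiole, lateral bud, stem and SAM lie between 97.1 and 6843 FPKM, and those in storage root, FEC, OES, RAM and fibrous root between 0.362 and 49.0 FPKM.

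PsbR is a small subunit on the lumenal side that, in Arabidopsis, is needed for stable binding of PsbP. In leaf its levels were 2939, 2457 and 1366 FPKM, and in fibrous root they were 13.8, 16.2 and 7.25 FPKM. PsbR was the only one of the 5 loci whose highest mean was not in leaf: stem had 2696, 2373 and 2048 FPKM, a mean of 2372 ± 324 (SD, n = 3), against 2254 ± 806 FPKM in leaf, and the libraries of the 2 organs overlapped. Midvein had 1203, 2023 and 1316 FPKM, petiole 1349, 1358 and 1685 FPKM, and lateral bud 709, 436 and 607 FPKM. Stem, midvein and petiole could not be ordered: stem over midvein had an adjusted p of 0.160 and midvein over petiole of 0.813 (edgeR quasi-likelihood test, adjusted over all named loci expressed in either type). SAM had 111, 189 and 149 FPKM. Storage root followed with 42.3 and 19.3 FPKM, above each library of FEC, with 3.44, 3.66 and 2.56 FPKM, of OES, with 1.52, 1.85 and 2.84 FPKM, and of RAM, with 3.79, 1.31 and 2.58 FPKM. The last 3 types overlapped, and no neighbours among them passed the test (adjusted p of 0.476 for FEC over RAM and 0.679 for RAM over OES).

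PsbP-1 is an extrinsic protein of the oxygen-evolving complex, which keeps calcium and chloride at the manganese cluster. It had 4140, 3435 and 3347 FPKM in leaf and 9.02, 10.01 and 9.31 FPKM in fibrous root. Midvein followed leaf with 2034, 1949 and 1797 FPKM. Stem (933, 602 and 655 FPKM), petiole (683, 467 and 494 FPKM) and lateral bud (486, 287 and 341 FPKM) came next and overlapped from one to the next, with adjusted p values of 0.433 and 0.166 for the neighbours. SAM was narrow at 135, 134 and 130 FPKM. Below SAM, PsbP-1 was the locus with the clearest order: OES had 46.4, 40.4 and 49.0 FPKM, storage root 27.3 and 29.1 FPKM, FEC 9.98, 4.51 and 8.82 FPKM, and RAM 1.53, 1.34 and 2.69 FPKM. Each of these neighbours differed in the test, with adjusted p of 0.00985 for OES over storage root, 2.33e-05 for storage root over FEC and 1.23e-06 for FEC over RAM.

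PsbX is a membrane-spanning small subunit of the core near cytochrome b559. Its levels were 1540, 1803 and 2099 FPKM in leaf and 2.47, 3.24 and 3.20 FPKM in fibrous root. Midvein had 711, 832 and 807 FPKM, stem 524, 352 and 539 FPKM, and petiole 441, 326 and 421 FPKM, and midvein exceeded both stem (adjusted p of 0.00539) and petiole (0.000735), while stem over petiole did not pass (0.599). Lateral bud, with 163, 99.6 and 146 FPKM, and SAM, with 97.1, 125 and 133 FPKM, overlapped. OES had 10.7, 10.04 and 11.0 FPKM, storage root 6.74 and 5.37 FPKM, FEC 3.20, 1.78 and 3.74 FPKM, and RAM 3.31, 1.58 and 1.76 FPKM. OES exceeded storage root (adjusted p of 0.0127) and storage root exceeded FEC (0.0204), while FEC over RAM did not pass (0.208).

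LHCB2 proteins form the major trimeric antenna of photosystem II together with LHCB1 and LHCB3, and in Arabidopsis their phosphorylation takes part in state transitions, the shift of antenna between the photosystems. The LHCB2.1 locus, which sums 2 genes, had the highest mean of the 5 in each of the 6 aerial types, though PsbR was higher in stem replicates 1 and 2. Leaf had 6843, 5288 and 6403 FPKM, midvein 3156, 2601 and 3264 FPKM, stem 2391, 2126 and 2833 FPKM, and petiole 1898, 1731 and 1743 FPKM. Neither neighbour pair among midvein, stem and petiole passed the test (adjusted p of 0.376 and 0.421). Lateral bud had 979, 525 and 773 FPKM and SAM 515, 471 and 369 FPKM. Below SAM the level dropped to single figures in every library: storage root had 6.87 and 1.97 FPKM, RAM 4.17, 2.46 and 3.86 FPKM, OES 3.35, 1.83 and 3.91 FPKM, FEC 3.38, 2.70 and 2.17 FPKM, and fibrous root 2.16, 1.62 and 2.68 FPKM. These types overlapped, and none of the neighbours among storage root, RAM, OES and FEC passed the test (adjusted p of 0.541, 0.726 and 0.752).

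LHCB3 is another protein of the same antenna trimers. It had 3306, 2488 and 2781 FPKM in leaf and 0.735, 0.856 and 1.04 FPKM in fibrous root. Midvein had 1443, 1305 and 1313 FPKM. Stem, at 650, 544 and 609 FPKM, and petiole, at 619, 598 and 566 FPKM, had nearly equal means (adjusted p of 0.987). Lateral bud had 404, 201 and 272 FPKM and SAM 136, 139 and 99.96 FPKM. The remaining types were between 0.362 and 3.35 FPKM: storage root 3.35 and 0.648 FPKM, OES 2.07, 1.09 and 2.14 FPKM, RAM 1.96, 1.495 and 1.16 FPKM, and FEC 1.35, 0.885 and 0.362 FPKM. They rest on 6 to 42 fragments per library, and no neighbours among them passed the test (adjusted p of 0.901, 0.701 and 0.0967).

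Of the 36 pairs that can be formed from the 9 types other than leaf and fibrous root, 34 passed the test for PsbP-1, 33 for PsbX, 31 for LHCB3, 30 for PsbR and 28 for the LHCB2.1 locus. Many loci pass in such pairs. In the 9 pairs compared below, 9.6% (petiole over stem) to 72.9% (storage root over RAM) of all loci tested were called in either direction. The share was not counted for the other pairs.

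Midvein was compared with petiole to set the vein inside the leaf against the stalk that carries it. PsbP-1 was higher in midvein with a log2 fold change of 1.91 ± 0.26 (SE, adjusted p of 1.67e-06), LHCB3 with 1.23 ± 0.31 (0.00314), PsbX with 1.04 ± 0.23 (0.000735) and the LHCB2.1 locus with 0.78 ± 0.30 (0.0440). PsbR had 0.11 ± 0.32 and did not pass (0.813). So 4 of the 5 loci were called higher in midvein, where 19.2% of all 23545 loci tested were called in that direction. The LHCB2.1 call was lost without any 1 of 5 of the 6 libraries (adjusted p up to 0.107). The 4 leaf markers summed to 17796 to 26095 FPKM in midvein and 1669 to 2753 FPKM in petiole, but they did not move together: 2 small-subunit loci were higher in midvein (log2 fold change 3.47 ± 0.33 for Manes.01G011500 and 3.37 ± 0.39 for Manes.05G137400), Manes.06G023400 was lower (-1.54 ± 0.36) and rubisco activase did not pass (0.16 ± 0.41, adjusted p of 0.790). The part of leaf blade cells in the midvein values was not tested. In bulk tissue, fewer green cells and less RNA of these genes per cell cannot be told apart.

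Petiole and stem were both axis organs with high levels. The log2 fold changes of petiole over stem were -0.68 ± 0.32 for PsbR, -0.36 ± 0.25 for PsbP-1, -0.24 ± 0.22 for PsbX, -0.44 ± 0.30 for the LHCB2.1 locus and -0.01 ± 0.31 for LHCB3. None of the 5 passed the edgeR test (adjusted p of 0.213 to 0.987), where 9.6% of loci were called in either direction. The PsbR libraries did not overlap, with at most 1685 FPKM in petiole and at least 2048 FPKM in stem. Nor did those of the LHCB2.1 locus, with at most 1898 FPKM in petiole and at least 2126 FPKM in stem. The share of all loci without overlap was not counted, so no difference is read from this.

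Lateral bud was set against SAM, the meristem of the main shoot. PsbR was higher in lateral bud by 1.97 ± 0.34 on the log2 scale (adjusted p of 5.91e-05), PsbP-1 by 1.54 ± 0.25 (4.17e-05), LHCB3 by 1.24 ± 0.31 (0.00270) and the LHCB2.1 locus by 0.77 ± 0.30 (0.0432). PsbX had 0.22 ± 0.23 and did not pass (0.448). These 4 of 5 stand against 23.9% of loci called higher in lateral bud. The LHCB2.1 call was lost without any 1 of 5 of the 6 libraries (adjusted p up to 0.189) and with another scaling of the libraries (0.0531). The 2 YABBY markers of leaf primordia summed to 119 to 217 FPKM in lateral bud and 36.4 to 50.4 FPKM in SAM, and their part in the difference was not tested.

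All 5 loci were lower in lateral bud than in stem, where 23.1% of loci were called in that direction. The log2 fold changes were -1.93 ± 0.33 for PsbR (adjusted p of 4.03e-05), -1.70 ± 0.23 for PsbX (1.84e-06), -1.60 ± 0.31 for the LHCB2.1 locus (0.000142), -0.95 ± 0.31 for LHCB3 (0.0140) and -0.78 ± 0.25 for PsbP-1 (0.0118). PsbP-1 did not pass without lateral bud replicate 2 (-0.63, adjusted p of 0.0581) or stem replicate 1 (-0.58, 0.0779), and LHCB3 did not pass without lateral bud replicate 2 (-0.74, 0.0695) or 3 (-0.88, 0.0510).

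The shoot and root meristems, prepared in the same way, differed in all 5 loci. SAM exceeded RAM by 7.01 ± 0.40 on the log2 scale for the LHCB2.1 locus (adjusted p of 3.53e-13), by 6.31 ± 0.42 for LHCB3 (5.00e-12), by 6.16 ± 0.34 for PsbP-1 (1.40e-13), by 5.88 ± 0.45 for PsbR (5.36e-11) and by 5.71 ± 0.31 for PsbX (1.40e-13). The ratios of mean FPKM ran from 53.4 for PsbX to 129 for the LHCB2.1 locus. The share of all loci called higher in SAM was 29.4%.

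**Figure D2:**
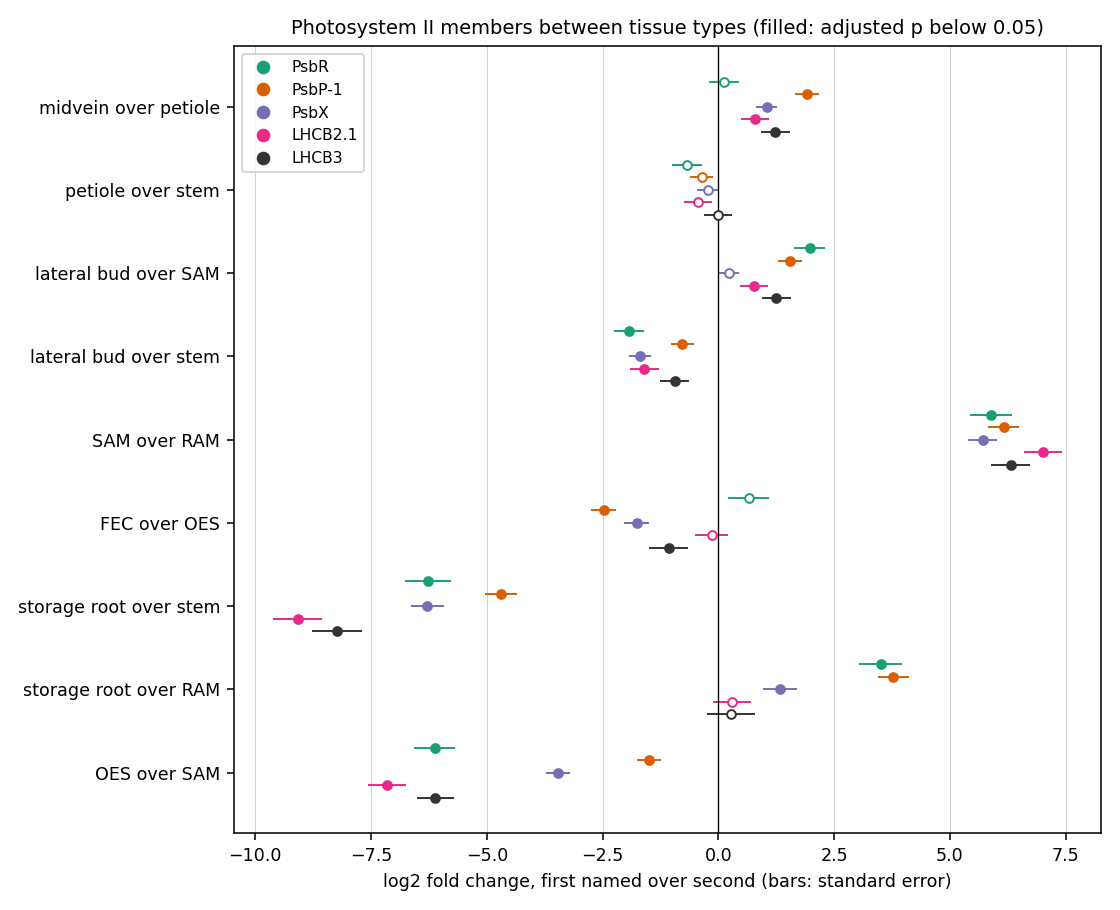
Log2 fold change (x axis) of each locus in 9 comparisons (y axis), first named type over second; bars are standard errors and filled points passed an adjusted p of 0.05. All 5 points are filled for lateral bud over stem, SAM over RAM, storage root over stem and OES over SAM, and none for petiole over stem.

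FEC was compared with OES, the more organized culture, which also differed in medium and age. PsbP-1 was lower in FEC, with a log2 fold change of -2.48 ± 0.27 (adjusted p of 5.11e-08), as was PsbX with -1.76 ± 0.27 (7.66e-06) and LHCB3 with -1.07 ± 0.42 (0.0404). PsbR had 0.65 ± 0.45 (0.245) and the LHCB2.1 locus -0.15 ± 0.35 (0.752), and neither passed. Thus 3 of 5 were called lower in FEC, where 22.3% of loci were called so. Some other markers also differed between the cultures. All 4 phloem markers (median log2 fold change -2.62), the 1 tested leaf primordia marker (-6.62) and Pt2L4, a gene highest in storage root and stem (-4.42), were lower in FEC. WUSCHEL related homeobox 2 was higher (2.82). Of the 4 leaf markers, 2 were lower in FEC and 2 did not pass. Of 3 shoot meristem markers tested, 1 was higher, 1 was lower and 1 did not pass. The phloem markers summed to 5.50 to 9.33 FPKM in FEC and 27.1 to 35.8 FPKM in OES, and the part of cell composition in the difference was not tested. The LHCB3 call rests on 0.362 to 2.14 FPKM and was lost without any 1 of 4 libraries (OES replicate 1 or 3, FEC replicate 2 or 3; adjusted p up to 0.243). The low PsbP-1 value of FEC replicate 2 did not decide that locus, whose log2 fold change stayed between -2.69 and -2.20 when each library was left out.

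OES fell below SAM for all 5 loci, where 29.9% of loci were called in that direction, but by very different amounts. The log2 fold change was -7.16 ± 0.40 for the LHCB2.1 locus (adjusted p of 3.01e-13), -6.13 ± 0.44 for PsbR (1.96e-11), -6.12 ± 0.40 for LHCB3 (5.00e-12), -3.47 ± 0.25 for PsbX (3.51e-11) and -1.50 ± 0.26 for PsbP-1 (2.03e-05). Mean FPKM of the LHCB2.1 locus was 149 times lower in OES than in SAM, and that of PsbP-1 was 2.94 times lower.

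Storage root was compared with stem, the type with the next highest Pt2L4, a cassava gene used as a marker of both (10865 FPKM in storage root and 3549 FPKM in stem on average). Pt2L4 was not confined to them: fibrous root had 687 to 1571 FPKM, petiole 771 to 1247 FPKM, RAM 532 to 1240 FPKM and OES 590 to 798 FPKM. All 5 loci were lower in storage root, where 34.3% of loci were called in that direction. The log2 fold change was -9.09 ± 0.53 for the LHCB2.1 locus (adjusted p of 7.08e-13), -8.23 ± 0.53 for LHCB3 (4.42e-12), -6.28 ± 0.35 for PsbX (4.18e-13), -6.28 ± 0.49 for PsbR (1.12e-10) and -4.70 ± 0.35 for PsbP-1 (4.47e-11). The size depended on the 2 storage root libraries: without replicate 1 the value was -10.22 for the LHCB2.1 locus, -9.78 for LHCB3 and -6.90 for PsbR, and without replicate 2 it was -8.38 for the LHCB2.1 locus, -7.42 for LHCB3 and -5.76 for PsbR.

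Within the root system, storage root exceeded RAM in the 3 subunit loci, by 3.78 ± 0.33 on the log2 scale for PsbP-1 (adjusted p of 4.57e-10), by 3.50 ± 0.47 for PsbR (3.29e-07) and by 1.34 ± 0.37 for PsbX (0.00215). The antenna loci did not pass, at 0.28 ± 0.41 for LHCB2.1 (0.541) and 0.27 ± 0.51 for LHCB3 (0.643). The 3 of 5 called stand against 32.3% of loci called higher in storage root. The 2 storage root libraries disagreed on the antenna: without replicate 1 the log2 fold change was -0.78 for LHCB2.1 and -1.22 for LHCB3, and without replicate 2 it was 1.03 for LHCB2.1 (adjusted p of 0.0327) and 1.12 for LHCB3. The median locus was itself shifted by -0.19 in this comparison. In a fit of these 2 types alone PsbX no longer passed (1.39, adjusted p of 0.0875).

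The balance of antenna to subunit transcripts was measured in each library as the summed FPKM of the LHCB2.1 locus and LHCB3 over that of PsbR, PsbP-1 and PsbX. The ratio averaged 1.05 in midvein, 0.996 in petiole, 0.952 in lateral bud, 0.865 in stem and 1.47 in SAM. It averaged 0.787 in RAM, 0.271 in FEC, 0.0913 in storage root and 0.0815 in OES. On the log2 scale the mean over the 5 aerial types was 0.05 ± 0.28 and over the 4 other types -2.40 ± 1.58 (SD over tissue types), a difference of 2.45. The exact two-sided permutation test over tissue types gave p of 0.0159, the smallest that 126 arrangements allow. The types are not independent units: FEC is made from OES, and the paper clusters petiole with stem and lateral bud with SAM. Its aerial group was also found in these data, so the p describes the split and does not measure chance. The type means of the 2 sets did not overlap, but RAM (-0.36) was close to stem (-0.23), and single libraries did overlap. RAM replicate 2 had a ratio of 0.936, above stem replicates 1 (0.732) and 2 (0.802). The RAM ratios rest on few fragments, 6 to 15 per library for PsbR and 26 to 35 for the LHCB2.1 locus. By description, leaf had a ratio of 1.18 and fibrous root of 0.129, which places each with its own set. The result depended on which antenna loci were summed. LHCB1 (Manes.17G066800), the main antenna protein and not one of the 5 loci, lies on a locus of 2 genes, so its values are those of both together. That locus had 79.9, 73.6 and 92.2 FPKM in OES. With it added the geometric mean ratio was 1.49 in OES and 1.45 in RAM, and the difference between the sets was 1.65 (exact permutation p of 0.0159). With all 6 antenna and 9 subunit loci considered here the difference was 1.39 (exact permutation p of 0.0159), and the ratio was 1.26 in OES, 1.11 in RAM, 0.582 in FEC and 0.242 in storage root.

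Ratios among the subunits also varied between types, and are given as a description with no test. The ratio of PsbR to PsbP-1 within a library was 2.89 to 3.94 in stem and 1.98 to 3.41 in petiole. It was 0.592 to 1.04 in midvein and 0.408 to 0.715 in leaf, whose values chose the loci. In OES it was 0.0328 to 0.0580, below every other library (the next lowest was 0.290, in FEC). PsbX over PsbP-1 averaged 0.216 in storage root, 0.235 in OES, 0.314 in fibrous root, 0.371 in lateral bud, 0.379 in FEC and 0.408 in midvein. It averaged 0.508 in leaf, 0.656 in stem, 0.732 in petiole, 0.894 in SAM and 1.34 in RAM. The RAM libraries ran from 0.657 to 2.17 and rest on 13 to 20 fragments each for PsbP-1. The LHCB2.1 locus over LHCB3 was more even: its means ran from 1.71 in OES to 4.08 in stem, with 2.17 in leaf and 2.48 in fibrous root.

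**Figure D3:**
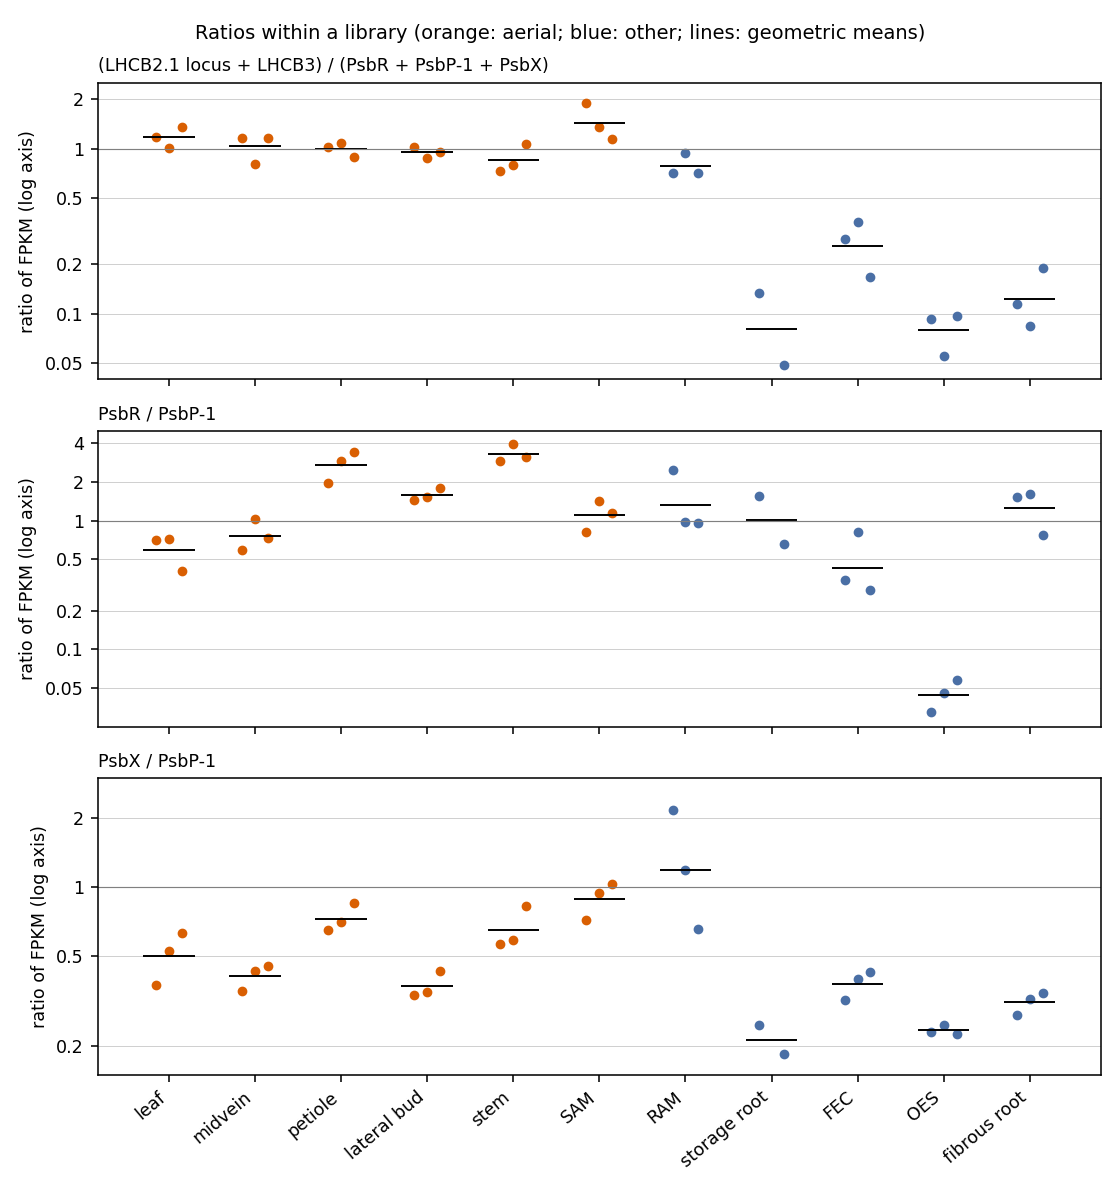
Ratios of FPKM within each library (log axes) by tissue/organ type: antenna over subunit loci, PsbR over PsbP-1, and PsbX over PsbP-1; points are libraries, lines geometric means, and the grey line marks a ratio of 1. The antenna ratio is 0.732 to 1.90 in the aerial types, 0.711 to 0.936 in RAM and at most 0.361 in storage root, FEC, OES and fibrous root. PsbR over PsbP-1 is lowest in OES.

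To place the 5 loci in their complex, 20 other photosystem II loci were followed: 6 subunits, 4 antenna proteins and 10 loci for assembly and regulation. These lists were taken from annotations in the study's own lists of differing genes, so their direction is not independent evidence. All 19 that were expressed were higher in midvein than in petiole, with a median log2 fold change of 1.99 against 0.00 for all loci, of which 19.2% were called so. Of 19, 14 were higher in lateral bud than in SAM and 5 did not pass (median 0.96, all loci 0.04 with 23.9% higher), and 1 was higher and 8 lower in lateral bud than in stem (median -0.18, all loci 0.07 with 23.1% lower). SAM exceeded RAM in 17 of 19 (median 3.70, all loci -0.01 with 29.4% higher). FEC was lower than OES in 11 of 18 and higher in 2 (median -1.20, all loci 0.04 with 22.3% lower). OES was lower than SAM in 15 of 19 (median -2.19, all loci -0.02 with 29.9% lower), and storage root was lower than stem in 16 of 19 (median -4.65, all loci -0.11 with 34.3% lower). Storage root exceeded RAM in 10 of 14 and was lower in 1 (median 1.45, all loci -0.19 with 32.3% higher). Petiole over stem passed in 1 locus upward and 2 downward of 19 (median -0.22, all loci -0.02), where 9.6% of all loci were called in either direction.

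**Figure D4:**
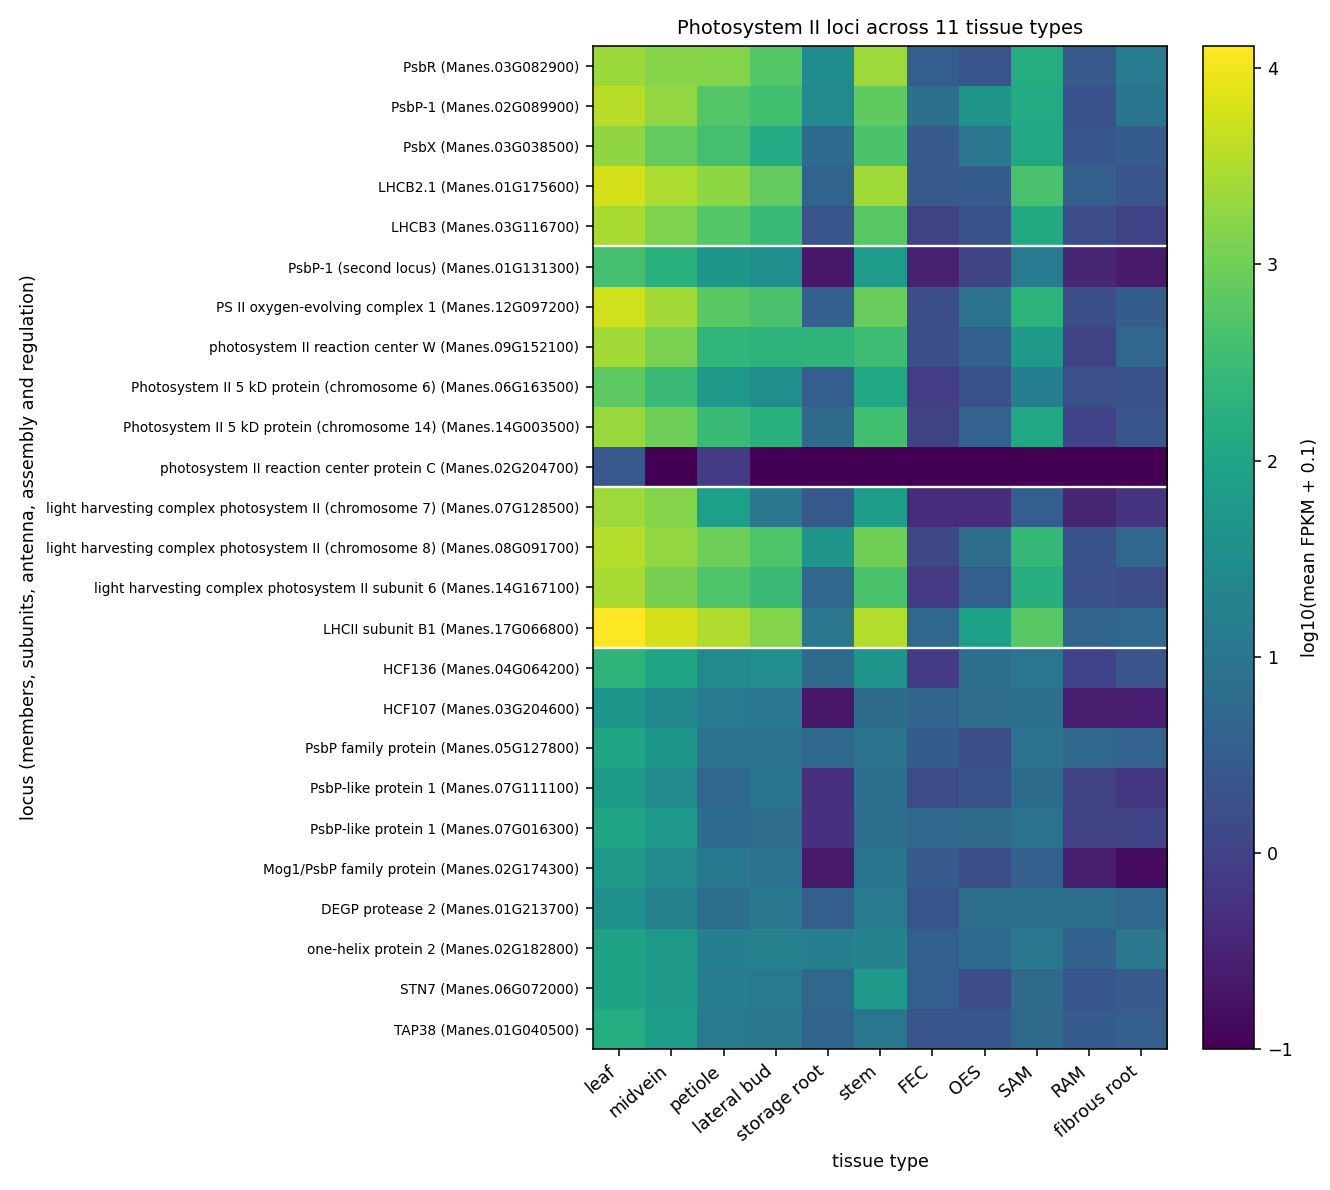
Mean level, as log10(FPKM + 0.1) in colour, of 25 photosystem II loci (rows; from the top the 5 loci described here, other subunits, other antenna proteins, assembly and regulation) in 11 tissue/organ types (columns). PsbW keeps a mean of 211 FPKM in storage root, the LHCB1 locus (2 genes) one of 81.9 FPKM in OES, and most assembly loci vary less than the subunits and antenna.

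Several of these loci departed from the 5. PsbW (Manes.09G152100), a small core subunit, had 143 and 279 FPKM in storage root, against 0.742 to 1.04 FPKM in RAM (log2 fold change 7.76 ± 0.43, adjusted p of 1.64e-13) and 245 to 394 FPKM in stem (-0.67 ± 0.30, 0.0573), whereas the 5 loci were 25.9 to 555 times lower in storage root than in stem. A second PsbP-1 locus (Manes.01G131300) was the lower copy in each type, at 406 ± 26.0 FPKM in leaf, and in storage root it had 0.117 and 0.106 FPKM, where the first copy had 27.3 and 29.1 FPKM. The LHCB1 locus, also of 2 genes, was far lower in FEC than in OES, at 5.54, 4.14 and 5.70 FPKM in FEC and the OES values above (-3.84 ± 0.31, adjusted p of 3.80e-10), unlike the LHCB2.1 locus in the same libraries. HCF136, a factor for assembly of the photosystem II reaction centre, was lower in FEC than in OES (log2 fold change -3.18 ± 0.27, adjusted p of 9.27e-10), while STN7, the kinase that phosphorylates LHCII in Arabidopsis, was higher in FEC (1.15 ± 0.22, 0.000134). STN7 is the one case named here where FPKM and fragments went apart: stem replicate 1 had 129 FPKM on 228 fragments, against 11.8 FPKM on 355 fragments in stem replicate 2, so its FPKM in stem are uncertain. The antenna locus Manes.07G128500 had 1464 ± 106 FPKM in midvein and 76.6 ± 25.8 FPKM in petiole (4.29 ± 0.32, 1.18e-10).

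The 5 loci were alike over the 11 types. Pearson's r of log2(mean FPKM + 1) ran from 0.929 for PsbR and PsbP-1 to 0.997 for the LHCB2.1 locus and LHCB3, as a description over 11 type means that share the large step between aerial and other types. Leaf and fibrous root, whose values chose the 5 loci, are among the 11 types, so part of this likeness was set by the choice. Among 20991 loci with at least 10 FPKM in some type, those most like PsbP-1 were Manes.02G143000 (photosystem I subunit D-2, r of 0.995), the locus of Manes.12G055600 (photosystem I subunit L, 0.991) and Manes.15G192500 (0.986). Those most like PsbX were Manes.06G091400 (an antenna protein of photosystem I, 0.996), Manes.12G097200 (oxygen-evolving complex 1, 0.995) and Manes.14G003500 (photosystem II 5 kD protein, 0.994). LHCB3 was most like Manes.15G184200 (0.999), Manes.15G183900 (0.999) and Manes.07G104600 (an antenna gene of photosystem I, 0.998), and the LHCB2.1 locus like Manes.12G040000 (0.997), Manes.15G184200 (0.996) and Manes.16G017000 (0.996). PsbR had the least close match, Manes.13G042400 (0.988), followed by Manes.01G269700, annotated as a bHLH transcription factor (0.985), and Manes.08G135500 (0.980). The bHLH locus, like PsbR, was about level in leaf (92.7 FPKM), stem (83.9 FPKM), petiole (74.9 FPKM) and midvein (72.9 FPKM).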

How the data were processed

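Reads had been cleaned by the authors (Trimmomatic 0.32), aligned to AM560-2 v6.1 (TopHat2, 2.0.10 per the labels), assembled into gene models (Cufflinks 2.2.1) and quantified per locus (Cuffdiff 2.2.1). Reads of several genes were left out at the Cufflinks step. The authors deposited FPKM, scaled between libraries by Cuffdiff, and the estimated count of fragments per locus, of which 82.03% of values above 0 were whole to within 0.001; counts were rounded here. The deposited signal of scaled fragments and the joint FPKM table were not used. Loci with no gene name, 1.73% to 5.76% of fragments, were left out.

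Counts were fitted with edgeR 4.0.16 (R 4.3.3; quasi-likelihood, TMM factors 0.720 to 1.15) over all 32 libraries and 27855 loci averaging 1 FPKM or more in some type. P-values were adjusted by Benjamini-Hochberg over all loci with at least 1 FPKM in either type compared. A call needed an adjusted p below 0.05. The script was tested on simulated counts. Storage root had 2 libraries. Leaf and fibrous root entered the fit but no tested contrast. Alternatives used DESeq2 1.42.0 and limma 3.58.1. The loci named are the 5 members, the lists above and, for each member, the 3 loci with the highest correlation. Members, lists and tests were chosen with earlier results of these data known. Ratios, correlations and figures used Python 3.11.15 with pandas 2.3.3, scipy 1.17.1 and matplotlib 3.10.9. Fragment numbers limit counting error only. No sequence of these genes was used here.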

Additional observations from a re-analysis of the deposited data

How the results depend on the processing

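Of 665 alternative values for the 5 loci in the 9 comparisons, 623 kept their direction and their side of the threshold, 30 no longer passed, 1 newly passed and 11 changed sign, always from a value that had not passed; the cause was not tested. For the LHCB2.1 locus, midvein over petiole did not pass with limma at a pseudocount of 0.1 or 0.01 (both 0.74) or with FPKM rescaled to an equal sum (0.71; adjusted p values over its alternatives up to 0.107), and lateral bud over SAM did not pass with RLE factors (0.74), limma at a pseudocount of 0.1 or 0.01 (both 0.72) or the compared types alone (0.75). With the compared types alone, PsbP-1 in lateral bud over stem (-0.82), LHCB3 in FEC over OES (-1.09) and PsbX in storage root over RAM (1.39) did not pass, and LHCB3 in FEC over OES did not pass with limma at a pseudocount of 1 (-0.58) or on rescaled FPKM (-0.60). Rescaled FPKM changed the sign of PsbR in midvein over petiole (-0.013), LHCB3 in petiole over stem (0.15), and, in storage root over RAM, LHCB2.1 (-0.00089) and LHCB3 (-0.0013), which was also -0.025 with limma at a pseudocount of 0.01. Rescaling moved the median of all loci by up to 0.38 (SAM over RAM).

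With each library left out in turn, log2 fold changes ranged as follows. In midvein over petiole they were 0.74 to 0.88 for LHCB2.1 and -0.15 to 0.24 for PsbR, negative without midvein replicate 2. In petiole over stem LHCB3 ran from -0.085 to 0.064. In lateral bud over SAM LHCB2.1 ran from 0.52 to 0.98. In lateral bud over stem PsbP-1 ran from -1.05 to -0.58 and LHCB3 from -1.29 to -0.74. In FEC over OES LHCB3 ran from -1.55 to -0.65 and LHCB2.1 from -0.41 to 0.094, positive without OES replicate 3. In storage root over RAM LHCB2.1 ran from -0.78 to 1.03 and LHCB3 from -1.22 to 1.12. Loci called in petiole over stem numbered 1402 to 1866, against 2236 with all libraries. Of 266 counts of called loci, the other 263 stayed within 1.5 times. The antenna difference ran from 1.39 to 3.01 over 34 alternatives, 5 of them chosen after seeing the data. All 34 kept the same split of types, which was found in these data. Their exact permutation p values, all below 0.05, describe that split and do not measure chance. Without PsbX in the sum the exact permutation p was 0.0476.

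Replicate numbers are shared between types but share only a number: correlations of same-numbered deviations were -0.10 to 0.21. With the replicate number as a block, 8722 loci were called in midvein over petiole, against 8503, and no call of the 5 loci changed. Storage root levels of the antenna loci, at 6 to 60 fragments, are limited by depth and by 2 libraries.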

Other observations

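One annotated relative of the antenna proteins was high in the organized cultures. Manes.15G033100, of the chlorophyll A-B binding family, had 2.02, 1.64 and 3.41 FPKM in FEC, against 150.0, 158 and 244 FPKM in OES (log2 fold change -6.18 ± 0.50, edgeR adjusted p of 3.61e-10). Its OES libraries exceeded those of SAM, at 1.86, 1.47 and 6.51 FPKM, by 5.89 ± 0.51 (adjusted p of 6.11e-10), where each of the 5 photosystem II loci was lower in OES than in SAM. OES was the type with the highest mean. Next came midvein, with a mean of 84.9 FPKM (libraries from 46.2 to 113 FPKM), and leaf, with 73.1 FPKM (74.5, 44.0 and 101 FPKM). This locus was called higher in OES than in FEC, among 22.3% of loci, and higher in OES than in SAM, among 28.8% of loci. The other 2 family loci considered here were lower in OES than in SAM. Manes.02G045000 had means of 26.3 FPKM in OES and 43.8 FPKM in SAM, and Manes.01G088500 of 6.22 and 17.7 FPKM. Of the 3 family loci, FEC over OES had 1 lower, 1 higher and 1 that did not pass.

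Photosystem I moved with photosystem II in most comparisons. Its list too was chosen with earlier results of these data known, so its direction is not independent evidence. Of 10 photosystem I loci, all 10 were higher in midvein than in petiole (median log2 fold change 1.88, against 0.00 for all loci, of which 19.2% were called so). All 9 tested were higher in lateral bud than in SAM (1.22, all loci 0.04 with 23.9% higher), higher in SAM than in RAM (5.18, all loci -0.01 with 29.4% higher) and lower in storage root than in stem (-5.25, all loci -0.11 with 34.3% lower). In FEC 7 of 8 were lower than in OES (-1.77, all loci 0.04 with 22.3% lower). OES over SAM was split, with 8 lower and 2 higher (-2.85, all loci -0.02 with 29.9% lower and 28.8% higher). Lateral bud was lower than stem in 8 of 9 (-1.03, all loci 0.07 with 23.1% lower). Storage root exceeded RAM in 5 of 8, and 3 did not pass (1.61, all loci -0.19 with 32.3% higher). None of 9 passed in petiole over stem (-0.38, all loci -0.02 with 9.6% called in either direction).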
